A study of Mus musculus with 16 samples.

Results

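Nat10, Thumpd1 and 8 other mouse genes whose proteins chemically modify ribosomal RNA (rRNA) or transfer RNA (tRNA) were followed through a block of transcription in blood-forming cells. The 10 genes are Nat10, Thumpd1, Fbl, Dkc1, Nop2, Emg1, Nsun2, Mettl1, Trmt61a and Pus1. They were chosen by name, and each was matched by its Ensembl identifier to 1 of the 55414 genes counted in every file. All 10 passed the filter on low counts, which kept 25081 genes.

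Polyadenylated RNA was sequenced in 16 libraries, 2 for each of 8 groups. The groups are wild type cells and cells labelled Nat10-deficient, each at 0, 1, 3 and 5 h after 5 µM actinomycin D, an inhibitor of RNA synthesis. Per the labels, bone marrow depleted of mature lineages was kept with stem cell factor and thrombopoietin, and stem cells were sorted from it at every time point. Strain, age, the Nat10 allele and what drives its loss are not given in the sources used here. The cell type label reads long-term haematopoietic stem cells, whereas the sample titles name 32D, a mouse myeloid progenitor line. Every group held counts for all 16 stem cell markers examined. Their summed level at 0 h was 3349 CPM (counts with the library scaled to 1000000 gene counts) in wild type and 1297 CPM in the libraries labelled Nat10-deficient, which are called KO-labelled from here on. By 5 h that sum had fallen to 566.1 CPM in wild type and 414.4 CPM in KO-labelled libraries.

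NAT10 is the mammalian enzyme that acetylates cytidine in RNA, giving N4-acetylcytidine (ac4C). It acetylates 18S rRNA during ribosome assembly, and it acetylates tRNAs for serine and leucine with THUMPD1, an RNA-binding adaptor without catalytic activity. The other 8 proteins place other marks. Fibrillarin (Fbl) methylates the ribose of rRNA within box C/D particles, dyskerin (Dkc1) forms pseudouridine within box H/ACA particles, and Nop2 and Emg1 modify rRNA bases as stand-alone enzymes of ribosome assembly. Nsun2, Mettl1 and Trmt61a methylate tRNA bases, and Pus1 makes pseudouridine in tRNA. In blood the family is best known through dyskerin, whose gene is mutated in dyskeratosis congenita, an inherited failure of the bone marrow.

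Depth and composition bear on every value that follows. Total counts ran from 9142413 to 17274128 per library. Both files of each of the 8 groups name the same alignment in their headers, although the labels speak of biological replicates. Their counts differed by a chi-square of 1.43 to 1.81 per degree of freedom, against 47.9 to 256 between neighbouring times. The standard deviations (SD) and the tests between files therefore hold little more than technical spread, and the genotype differences and slopes were therefore also fitted with the 2 files of a group summed, as straight lines over hours or, for the mean of the times, with time as a factor. For the same reason, statements below on whether files of the 2 genotypes overlap are descriptions only. The share of all genes whose files do not overlap is not given. Immunoglobulin transcripts took 3.91% to 3.94% of gene counts in wild type at 0 h and 66.4% to 66.7% at 5 h. In KO-labelled libraries the highest share was 27.5%, at 3 h, and the lowest was 4.31%, at 5 h. Levels below are therefore given as CPM of the counts outside immunoglobulin genes, unless stated otherwise. ERCC spike-ins, synthetic RNAs put into each RNA sample at 1 fixed amount, took 1.79% to 2.92% of wild type counts and 0.0221% to 0.129% of KO-labelled counts. In bulk libraries, a change in the mix of cells and a change in RNA per cell cannot be told apart.

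Nat10 (ENSMUSG00000027185, chromosome 2, bases 103551601 to 103591615 of GRCm39, minus strand) checks the genotype label, and its mRNA was not lower in the KO-labelled libraries before the block. At 0 h it measured 108 CPM in both wild type files, and 118 and 122 CPM in the KO-labelled files. In raw counts these were 1383 and 1256 against 1849 and 1955. Counts span the whole gene, so a deletion that leaves most of the transcript in place would not show in them. The TMM-scaled difference of KO-labelled over wild type was 0.33 on the log2 scale (SE 0.05, edgeR quasi-likelihood test with Benjamini-Hochberg adjusted p = 9.6e-10), and -0.014 when libraries were scaled on long-lived mRNAs. With the files of a group summed, the gap at 0 h between straight lines fitted over all times was -0.012 (SE 0.31, edgeR adjusted p = 1). A gap between fitted lines is not the 0 h files compared again, so its sign can differ from theirs.

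After the block, Nat10 mRNA fell in wild type and stayed abundant in the KO-labelled libraries, relative to other transcripts. The wild type files held 133 and 142 CPM at 1 h, 81.2 and 69.0 CPM at 3 h, and 50.1 and 45.9 CPM at 5 h. The KO-labelled files held 102 and 108 CPM at 1 h, 130 and 133 CPM at 3 h, and 153 and 169 CPM at 5 h. The files of the 2 genotypes did not overlap at any of the 4 times, and wild type was the higher genotype at 1 h only. KO-labelled over wild type differed by -0.12 at 1 h (adjusted p = 0.042), 1.21 at 3 h (SE 0.07) and 1.96 at 5 h (SE 0.07, adjusted p = 1.8e-71) in the edgeR test. Read from the straight lines through summed files, an addition for these times after seeing the data, it was 0.37 at 1 h (SE 0.24, adjusted p = 0.72), 1.14 at 3 h (SE 0.23, adjusted p = 0.029) and 1.91 at 5 h (SE 0.37, adjusted p = 0.057). The call at 1 h was lost without any of 6 single libraries (KO_1h replicate 1, WT_1h replicate 2, and either replicate of WT_3h or of WT_5h), with values from -0.17 to -0.072. Over the mean of the 4 times the difference was 0.85, with an SE of 0.03 between files (adjusted p = 1.0e-71) and of 0.33 with files summed (adjusted p = 0.27).

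Thumpd1 (ENSMUSG00000030942, chromosome 7, bases 119314316 to 119320021, minus strand), the partner of Nat10 on tRNA, fell in both genotypes. Wild type files held 90.8 and 83.6 CPM at 0 h, 79.2 and 82.0 CPM at 1 h, 51.1 and 55.3 CPM at 3 h, and 29.7 and 30.8 CPM at 5 h. KO-labelled files held 84.6 and 81.0 CPM at 0 h, 65.6 and 64.8 CPM at 1 h, 48.4 and 42.4 CPM at 3 h, and 42.7 and 37.6 CPM at 5 h. The files of both genotypes overlapped at 0 h, wild type was the higher at 1 and 3 h, and KO-labelled was the higher at 5 h. On the TMM scale the genotypes were not called apart at 0, 1 or 3 h (log2 differences of 0.097, -0.039 and 0.17). At 3 h the call was gained without KO_3h replicate 2, at 0.26. At 5 h the difference was 0.63 (SE 0.11, edgeR adjusted p = 6.0e-08). The Pearson correlation of the log2 levels of Nat10 and Thumpd1 over the 8 group means was 0.48, a description of groups that share the scaling and the same time points.

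**Figure D1:**
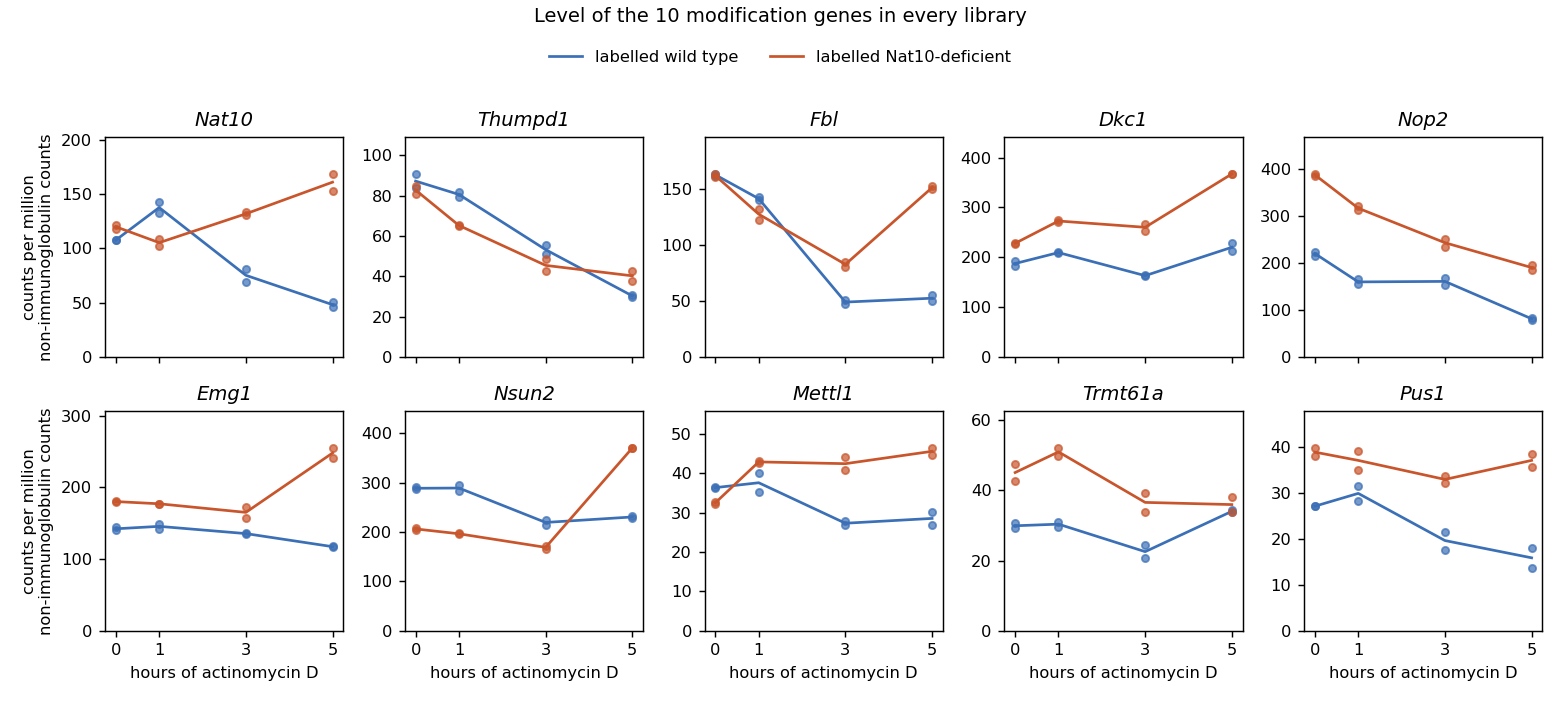
Level of each of the 10 genes (CPM of counts outside immunoglobulin genes, linear axes from 0) against hours of actinomycin D, with 1 point per file and lines through group means, wild type in blue and KO-labelled in orange. Nat10 ends at 45.9 to 50.1 CPM in wild type and 153 to 169 CPM in KO-labelled files, while Thumpd1 falls in both and Nop2 is higher in KO-labelled files at every time.

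Upstream sequence was looked at because the level of most of these genes moved in the same direction between genotypes on the TMM scale. A part of promoters in these differences was not tested. RefSeq promoters of GRCm38.p6, covering 250 bases before to 50 bases after the start, were matched for 9 of the 10 genes. For Thumpd1 the RefSeq start lies 2821 bases from the nearest GENCODE start, so its window may not be the one used. Nat10 and Nop2 are shown first, as the gene under study and the gene with the largest mean difference between genotypes. These are the 150 bases before the start, at chr2:103761271-103761420 (minus strand) for Nat10 and chr6:125131733-125131882 (plus strand) for Nop2, with the palindrome CACGTG in capitals.
Nat10 upstream: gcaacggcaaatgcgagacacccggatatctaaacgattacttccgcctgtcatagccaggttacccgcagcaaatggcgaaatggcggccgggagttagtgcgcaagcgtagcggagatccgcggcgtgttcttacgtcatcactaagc
Nop2 upstream: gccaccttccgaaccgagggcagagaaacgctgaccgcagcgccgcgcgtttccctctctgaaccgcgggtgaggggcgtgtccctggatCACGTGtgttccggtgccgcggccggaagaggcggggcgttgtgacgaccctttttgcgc

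CACGTG is the canonical E-box, the letters to which MYC with MAX, USF and related factors bind. It occurred in 4 of the 9 matched promoters (Pus1, Nop2, Mettl1 and Trmt61a), in 7.24% of 26994 promoters of the same length and in 10.3% of the 87 promoters matched for the other genes of rRNA and tRNA modification. The 4 matches are shown with 12 bases on each side, since their place relative to the start differs. The match lies 60 bases before the start in Nop2, and 22, 30 and 25 bases after it in Pus1, Mettl1 and Trmt61a.
Nop2 (chr6:125131811-125131840, plus): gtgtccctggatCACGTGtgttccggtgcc
Pus1 (chr5:110780576-110780605, minus): tccgccttcgtgCACGTGgtcagcttcggg
Mettl1 (chr10:127041950-127041979, plus): agctcggctctcCACGTGgactgcgtggca
Trmt61a (chr12:111678118-111678147, plus): ccgccgtggagcCACGTGtggagccgggag

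Other motifs were searched on both strands in the same windows. CCGGAAG, the core letters of ETS factor sites, was in the promoters of Emg1, Nop2, Trmt61a and Nsun2, in 9.12% of all promoters and in 27.6% of those of the other modification genes. GGGCGG (GC box) was in Emg1 and Nop2 (35.9% of all promoters), while CCAAT (37.9%) and TATAAA (14.2%) were in Dkc1 alone among the 9. The core palindrome of NRF1 sites was in none of the 9 and in 0.971% of all promoters. A match of letters is a description of the window, and no binding was measured in these libraries.

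Levels between genes are compared per transcript length, in TPM (counts per base of exon, set to a common total per library) computed from the counts and the exonic lengths in the files. In wild type at 0 h the order was Nop2 (211 TPM), Nsun2 (134 TPM), Dkc1 (121 TPM), Fbl (103 TPM), Emg1 (81.7 TPM), Thumpd1 (77.2 TPM) and Nat10 (39.7 TPM). Mettl1, Pus1 and Trmt61a followed at 33.2, 33.0 and 32.7 TPM, and the files of these 3 neighbours overlapped. Nop2 stood at the 97.5th percentile of tested genes and Nat10 at the 85.6th, so all 10 mRNAs belonged to the more abundant ones. In KO-labelled libraries at 0 h Nop2 again led, at 317 TPM, while Nat10 was in place 9 at 37.7 TPM and Mettl1 was the lowest at 25.3 TPM. Emg1 and Fbl (88.2 and 87.3 TPM) overlapped there, as did Trmt61a and Pus1 (42.0 and 40.4 TPM).

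The first comparison asks whether the 10 mRNAs differed between genotypes before the block. At 0 h 7 of the 10 were higher in the KO-labelled libraries and 1 was lower, against 36.0% higher and 24.2% lower among all genes tested. Nop2, Trmt61a, Pus1, Emg1, Dkc1, Nat10 and Fbl made up the higher ones, with log2 differences from 0.99 (Nop2, SE 0.03) to 0.17 (Fbl, SE 0.04), both by the edgeR test. These are TMM-scaled. In CPM outside immunoglobulin genes Fbl was not higher, with means of 162.8 CPM in wild type and 162.2 CPM in KO-labelled libraries. Nsun2 was lower by -0.31 (SE 0.04, edgeR adjusted p = 2.6e-15). With libraries scaled on 43 long-lived mRNAs, which moves the median of all genes from 0.10 to -0.067, 5 were higher and 4 lower (23.2% and 37.2% of all genes). Fbl (-0.18), Nat10 (-0.014), Thumpd1 and Mettl1 changed sign. In the straight lines through summed files none of the 10 passed at 0 h, nor did any of the 25081 genes (edgeR). Of all genes, 1240 had an unadjusted p under 0.05. Nop2 (unadjusted p = 0.0053) and Trmt61a (unadjusted p = 0.029) were the members among these 1240.

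More of the 10 genes were called higher at 3 and 5 h than at 0 h. At 1 h 7 of the 10 were higher and 2 lower in KO-labelled libraries, against 32.4% and 31.8% of all genes. At 3 h 8 were higher and none lower, against 30.4% and 37.0%, and at 5 h all 10 were higher, against 34.2% and 30.1%. At 3 h Thumpd1 (0.17, edgeR adjusted p = 0.11) and Nsun2 (0.022, adjusted p = 0.71) did not pass. At 5 h the differences ran from 0.30 for Trmt61a (SE 0.11, adjusted p = 0.014) to 1.96 for Nat10. Trmt61a at 5 h was lost without KO_5h replicate 2, at 0.21. At 3 h 4 of the 10 passed with straight lines through summed files (Nat10, Nop2, Pus1 and Emg1, all higher), against 2.89% higher and 1.15% lower among all genes. At 1 and 5 h that edgeR fit called none of the 10 and none of all genes, of which 2279 and 4087 had an unadjusted p under 0.05. The gaps of a gene are all read from the same pair of lines and are not separate tests of the files. For Nat10, Nop2, Pus1 and Emg1 the SE of the gap was smallest at 3 h. The Nat10 gap was 1.14 there (SE 0.225), and larger but less precise at 5 h (1.91, SE 0.367). Passing only at 3 h therefore does not single out that time. Scaling on long-lived mRNAs moved the median of all genes to -0.43 at 1 h, -0.91 at 3 h and -0.052 at 5 h. It left 3 members higher and 4 lower at 1 h (17.3% and 49.4% of all genes), 5 higher and 3 lower at 3 h (11.4% and 59.7%), and 8 higher and 1 lower at 5 h (22.8% and 39.6%).

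**Figure D2:**
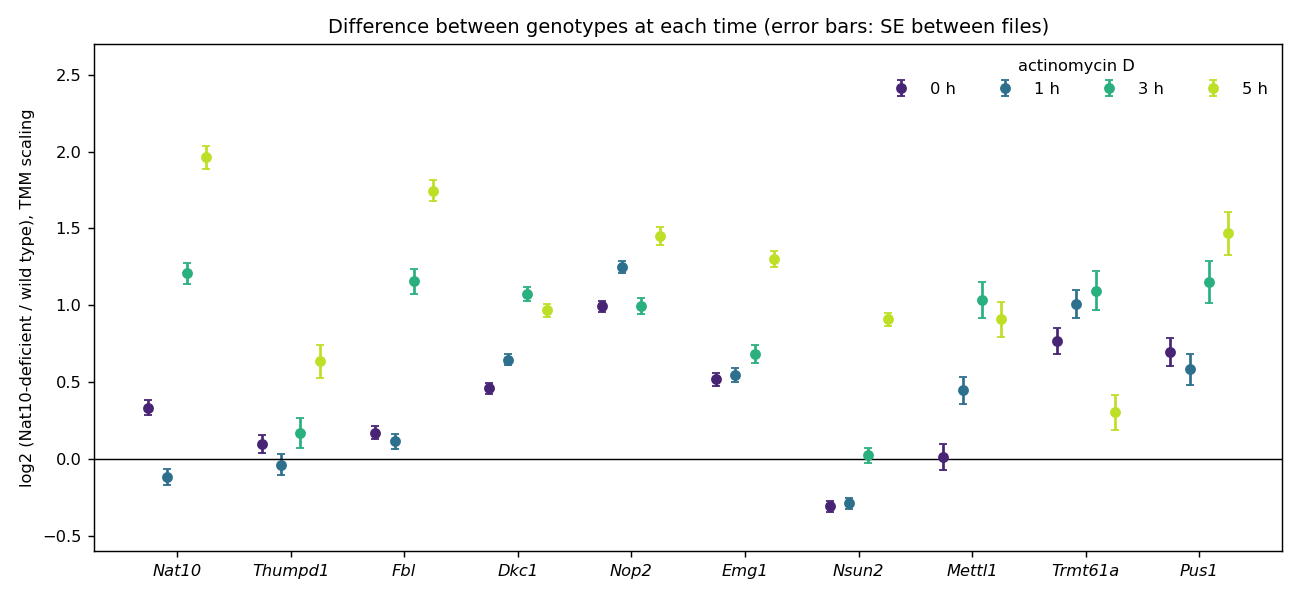
Difference between genotypes (log2 of KO-labelled over wild type, TMM scaling) for each of the 10 genes at 0, 1, 3 and 5 h, with bars for the SE between files. Nat10 moves from -0.12 at 1 h to 1.96 at 5 h, Nop2 lies between 0.99 and 1.45 at every time, and Nsun2 goes from -0.31 at 0 h to 0.91 at 5 h.

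Averaged over the 4 times, all 10 genes were higher in the KO-labelled libraries and none lower, against 31.6% higher and 21.6% lower among all genes. The median of the 10 was 0.79 on the log2 scale, and that of all genes 0.11. With the 2 files of a group summed none of the 10 passed, and Nop2 came nearest at 1.18 (SE 0.20, edgeR adjusted p = 0.062). Among all genes that fit called 8 higher (0.0319%) and 9 lower (0.0359%). Without the 5 h libraries, an alternative chosen after seeing the data, 8 were higher and 1 was lower (Nsun2, -0.19), against 31.9% and 23.8% of all genes, and Thumpd1 did not pass (0.077, adjusted p = 0.12). Scaled on long-lived mRNAs, 7 were higher and 2 lower (Thumpd1 -0.36, Nsun2 -0.49), against 13.8% and 38.8% of all genes, whose median was -0.41.

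Among the enzymes of rRNA, Nop2 had the largest mean difference, 1.17 (SE 0.02, edgeR adjusted p = 4.7e-126). NOP2 methylates a cytosine of 28S rRNA. In wild type its files held 215 and 224 CPM at 0 h, 165 and 154 CPM at 1 h, 167 and 154 CPM at 3 h, and 83.5 and 78.3 CPM at 5 h. In KO-labelled files it was 385 and 389 CPM at 0 h, 320 and 312 CPM at 1 h, 234 and 251 CPM at 3 h, and 194 and 185 CPM at 5 h. Every KO-labelled file was above every wild type file of the same time.

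Fbl, the methyltransferase of box C/D particles (ENSMUSG00000046865), began with overlapping files in both genotypes and differed most at 3 and 5 h. Its level in the wild type files was 164 and 162 CPM at 0 h, 143 and 140 CPM at 1 h, 46.8 and 51.1 CPM at 3 h, and 55.2 and 49.7 CPM at 5 h. The KO-labelled pair measured 161 and 164 CPM at 0 h, 123 and 133 CPM at 1 h, 80.2 and 85.2 CPM at 3 h, and 150 and 153 CPM at 5 h. The log2 differences were 1.16 at 3 h (SE 0.08) and 1.75 at 5 h (SE 0.07), and the mean over the 4 times was 0.80 (SE 0.03). At 0 h Fbl was called higher on the TMM scale, although the files overlapped in CPM. At 1 h the sign depends on the scale: the CPM outside immunoglobulin genes was lower in both KO-labelled files, while the TMM-scaled difference was 0.11 (edgeR adjusted p = 0.039). That call was lost without KO_1h replicate 2 or either WT_1h file, with values from 0.055 to 0.17 over all libraries left out.

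Dkc1, the pseudouridine synthase of box H/ACA particles and of telomerase, was higher in KO-labelled files at every time. The wild type pair measured 192 and 183 CPM at 0 h, 208 and 210 CPM at 1 h, 162 and 164 CPM at 3 h, and 212 and 228 CPM at 5 h. KO-labelled levels were 229 and 227 CPM at 0 h, 270 and 275 CPM at 1 h, 267 and 252 CPM at 3 h, and 367 CPM in both at 5 h. Its mean difference was 0.79 (SE 0.02). The share of Dkc1 among non-immunoglobulin transcripts at 5 h was above that at 0 h in both genotypes, whereas that of Nop2 was below it in both.

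Emg1, which methylates a hypermodified uridine of 18S rRNA, held 140 and 144 CPM at 0 h and 118 and 117 CPM at 5 h in wild type. In KO-labelled files it held 180 and 181 CPM at 0 h and 255 and 241 CPM at 5 h. At 1 and 3 h wild type files lay between 135 and 149 CPM and KO-labelled files between 157 and 177 CPM, so the genotypes did not overlap at any time. The mean difference was 0.76 (SE 0.02). Emg1 shares 334 exonic bases (7.2%) with Lpcat3 on the other strand, and counting was unstranded, so reads there cannot be told apart.

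Among the enzymes of tRNA, Nsun2 was the only one called lower in KO-labelled libraries before the block, on the TMM scale. NSUN2 methylates cytosines of many tRNAs. In the wild type pair it measured 291 and 286 CPM at 0 h, 282 and 296 CPM at 1 h, 214 and 224 CPM at 3 h, and 228 and 233 CPM at 5 h. For KO-labelled libraries the files gave 204 and 209 CPM at 0 h, 195 and 197 CPM at 1 h, 166 and 171 CPM at 3 h, and 370 CPM in both at 5 h. Nsun2 was thus the lower in KO-labelled files up to 3 h and the higher at 5 h. On the TMM scale the differences were -0.31, -0.29, 0.022 and 0.91 in order of time, and the mean of 0.082 (SE 0.02, edgeR adjusted p = 0.00021) joins opposite directions. Nsun2 shares 634 exonic bases (11.1%) with Tent4a and Gm17108 on the other strand.

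Mettl1, the catalytic subunit for 7-methylguanosine in tRNA, was not called apart between genotypes at 0 h on the TMM scale (0.014, SE 0.09, edgeR adjusted p = 0.96). Wild type levels were 36.2 and 36.5 CPM at 0 h, 40.0 and 35.2 CPM at 1 h, 26.8 and 27.8 CPM at 3 h, and 26.8 and 30.2 CPM at 5 h. In the KO-labelled pair it measured 32.8 and 32.2 CPM at 0 h, 43.2 and 42.6 CPM at 1 h, 40.8 and 44.0 CPM at 3 h, and 44.7 and 46.5 CPM at 5 h. The KO-labelled files were the lower at 0 h and the higher at every later time, and the TMM-scaled difference reached 1.03 at 3 h (SE 0.12).

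Trmt61a, the catalytic subunit for 1-methyladenosine at tRNA position 58, was higher in KO-labelled files early and near wild type at the end. For wild type the files gave 30.6 and 29.2 CPM at 0 h, 31.1 and 29.6 CPM at 1 h, 24.5 and 20.6 CPM at 3 h, and 34.3 and 33.8 CPM at 5 h. KO-labelled files held 47.4 and 42.8 CPM at 0 h, 49.8 and 52.1 CPM at 1 h, 33.9 and 39.2 CPM at 3 h, and 33.8 and 38.1 CPM at 5 h. The genotypes overlapped at 5 h only. As point values, it was the single member whose genotype difference was smaller at 5 h (0.30) than at 0 h (0.76, SE 0.09).

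Pus1, the pseudouridine synthase of cytosolic and mitochondrial tRNA, had the lowest counts, down to 62 in 1 wild type file at 5 h. The level in wild type was 27.1 and 27.0 CPM at 0 h and 13.6 and 18.1 CPM at 5 h. In KO-labelled files it was 39.8 and 37.9 CPM at 0 h and 35.6 and 38.5 CPM at 5 h. At 1 and 3 h wild type files lay between 17.7 and 31.5 CPM and KO-labelled files between 32.2 and 39.1 CPM, so the KO-labelled files were above wild type at every time. The mean difference was 0.97 (SE 0.06, edgeR adjusted p = 6.1e-40). Pus1 shares 138 exonic bases (6.3%) with Gm15559, Mettl1 100 (3.4%) with Eef1akmt3 and Dkc1 45 (1.1%) with Mpp1, all on the other strand.

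Markers of stem cells, of other cells and of proliferation also differed between genotypes, and not all of them in the direction of the 10 genes. Their sums are group means of CPM outside immunoglobulin genes, and plain CPM is given where it turns a direction. The 16 stem cell markers summed to 3486 CPM in wild type and 1394 CPM in KO-labelled libraries at 0 h, and to 1690 and 433.1 CPM at 5 h. The 16 proliferation genes, all with counts in every group, summed to 2735 CPM in wild type and 4190 CPM in KO-labelled libraries at 0 h, and to 2284 and 5044 CPM at 5 h. All 10 erythroid markers had counts in every group, with a sum of 4890 CPM in wild type and 5551 CPM in KO-labelled libraries at 0 h, and of 5189 and 16050 CPM at 5 h. In plain CPM the erythroid sum of wild type went from 4698 at 0 h to 1738 at 5 h, so its direction there depends on the scale. The 7 eosinophil markers (Siglecf and Ccr3 at 0 in wild type at 5 h) summed to 270.9 and 1477 CPM at 0 h and to 4975 and 6020 CPM at 5 h, in wild type and KO-labelled libraries. The 10 neutrophil and monocyte markers summed to 6656 and 11380 CPM at 0 h and to 16550 and 15770 CPM at 5 h. The 9 mast cell and basophil markers summed to 557.9 and 660.1 CPM and then to 926.6 and 1888 CPM. In wild type Cma1 was at 0 at 1, 3 and 5 h, and Tpsb2 at 1 and 5 h. At 3 h the eosinophil, neutrophil and monocyte, and mast cell and basophil sums of wild type were 4543, 15460 and 1326 CPM. Those of KO-labelled libraries were 8073, 27230 and 6048 CPM, each above its sum at 0 h and at 5 h. In plain CPM the neutrophil and monocyte sum at 5 h was 5543 in wild type and 15090 in KO-labelled libraries, so the order of the genotypes depends on the scale. In wild type from 0 to 5 h, plain CPM of that sum went from 6395 to 5543. The mast cell and basophil sum went from 536.0 to 310.3, so both courses turn with the scale. The 8 megakaryocyte markers (Gp1bb at 0 in every group) summed to 1079 and 902 CPM at 0 h and to 445.8 and 567.6 CPM at 5 h. Ppbp was also at 0 in wild type at 5 h. The plasma cell and B cell list (14 genes, Mzb1 at 0 in wild type at 0 h) holds immunoglobulin genes and is given in plain CPM. It was the higher in KO-labelled libraries at 0 h (60640 to 60990, against 34890 to 35010 in wild type) and the higher in wild type at 5 h (554900 to 557500, against 37020 to 37210). The part of these shifts in the values of the 10 genes was not tested.

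The second question, the one the series states, is how fast mRNAs are lost after the block. Loss was read as the slope of a straight line over 0, 1, 3 and 5 h, in log2 per hour, with libraries scaled on ERCC counts. All 10 genes fell in wild type, where 57.4% of all genes were called lower and 11.1% higher. All 10 also fell in KO-labelled libraries, where 71.3% were called lower and 3.19% higher. In wild type the median slope of the 10 was -0.49 and that of all genes -0.36. In KO-labelled libraries they were -0.40 and -0.48. With the files of a group summed, 8 of the 10 still passed in wild type (26.7% of all genes were called lower) and 7 in KO-labelled libraries (35.4%). Dkc1 and Trmt61a were lost in wild type, and Dkc1, Nsun2 and Mettl1 in KO-labelled libraries. The slopes depend on the ERCC share: with TMM scaling, which moves the median of all genes to -0.023 in wild type, 6 of the 10 fell and 2 rose there (Dkc1 0.061, Trmt61a 0.054), against 31.2% lower and 28.1% higher among all genes. In KO-labelled libraries TMM scaling gave 3 lower and 6 higher, against 31.8% and 29.0%.

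Fbl, Thumpd1, Nat10 and Nop2 had the steepest slopes in wild type, and Dkc1 and Trmt61a the shallowest. Fbl fell at -0.73 log2 per hour (SE 0.01), which as a half-life is 1.38 h. Thumpd1 followed at -0.66 (SE 0.02, half-life 1.51 h), Nat10 at -0.62 (SE 0.01, half-life 1.61 h) and Nop2 at -0.60 (SE 0.01, half-life 1.66 h). The slope was -0.53 for Pus1, -0.44 for Mettl1, -0.43 for Nsun2 and -0.41 for Emg1. Trmt61a and Dkc1 fell at -0.34 and -0.33, with half-lives of 2.95 and 3.00 h. With summed files the SE of a slope was far wider, 0.15 for Nat10 and 0.14 for Dkc1, and the gap between any 2 neighbours in this order was smaller than that.

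In KO-labelled libraries Thumpd1 and Nop2 had the steepest slopes, at -0.64 and -0.63 (SE 0.01 for both), with half-lives of 1.56 and 1.58 h. Trmt61a (-0.52), Fbl (-0.47) and Pus1 (-0.45) came next. Mettl1 (-0.36), Emg1 (-0.35), Nat10 (-0.33, SE 0.01), Dkc1 (-0.32) and Nsun2 (-0.28) were the shallowest. Nat10 had a half-life of 3.03 h there. Each time is a separate sort, so a slope also holds any change in the cells sorted.

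The difference of the slopes, tested as an interaction, passed for 7 of the 10 genes. It was higher, that is a less steep slope in KO-labelled libraries, for 6, against 15.7% of all genes, and lower for 1, against 32.1%. Nat10 had the largest difference, 0.29 log2 per hour (SE 0.02, edgeR adjusted p = 3.5e-58), and Fbl the next, 0.26 (SE 0.02). Nsun2 (0.15), Mettl1 (0.088), Pus1 (0.082) and Emg1 (0.059) were also higher, and Trmt61a was lower at -0.18 (SE 0.03). The call of Pus1 was lost without any of 6 single libraries (KO_1h replicate 1, KO_5h replicate 2, WT_0h replicate 2, WT_1h replicate 2, WT_3h replicate 1 or WT_5h replicate 1), with values from 0.042 to 0.12. That of Mettl1 was lost without WT_5h replicate 1, with values from 0.069 to 0.10. Thumpd1 (0.021, SE 0.02), Dkc1 (0.017, SE 0.01) and Nop2 (-0.030, SE 0.01) did not pass. With the files of a group summed no gene of the 10 passed, Nat10 standing at 0.27 (SE 0.19, adjusted p = 0.94), while 10 genes higher (0.0399%) and 60 lower (0.239%) were called among all. Without the 5 h libraries 3 were higher (Nat10 0.13, Fbl 0.14, Mettl1 0.12) and 4 lower (Nop2 -0.23, Thumpd1 -0.18, Emg1 -0.16, Nsun2 -0.099), against 10.2% and 43.5% of all genes, whose median was -0.26.

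**Figure D3:**
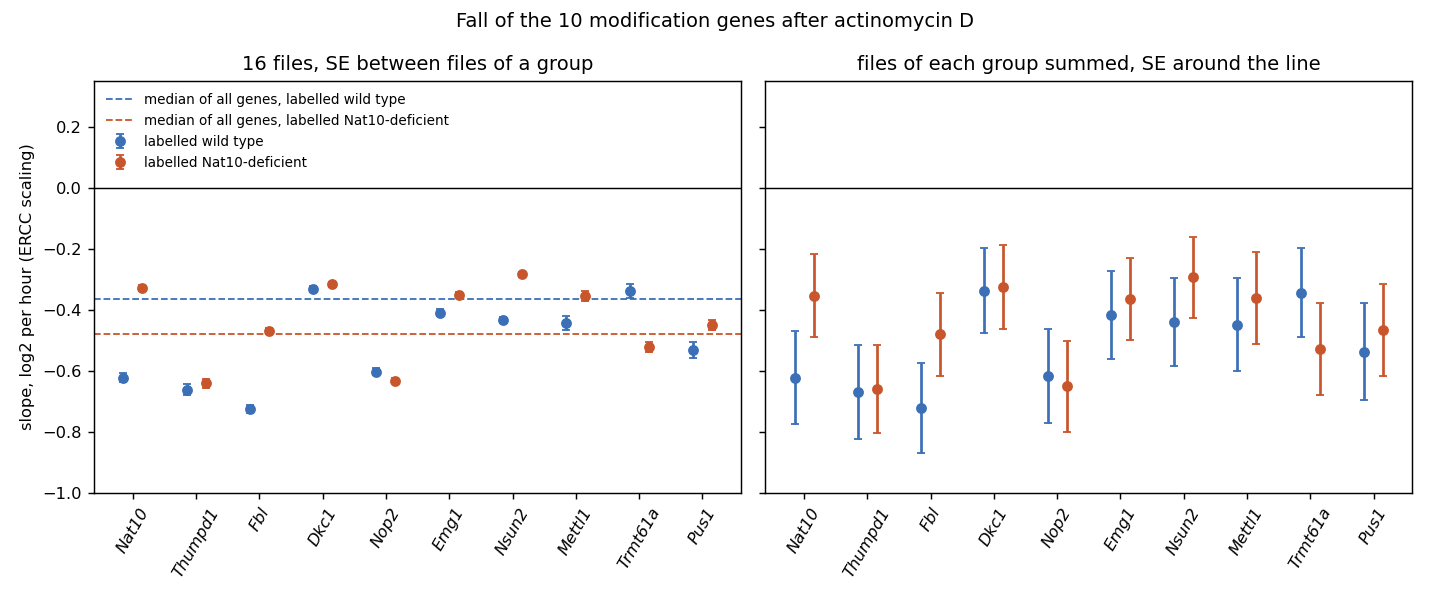
Slope of each gene after actinomycin D (log2 per hour, ERCC scaling) in wild type (blue) and KO-labelled libraries (orange), from the 16 files with the SE between files on the left and from summed files with the SE around the line on the right. Dashed lines mark the median of all genes, -0.36 in wild type and -0.48 in KO-labelled libraries. On the left the slopes of Nat10 (-0.62 and -0.33) and Fbl (-0.73 and -0.47) lie far apart, and on the right the bars of both genotypes meet or overlap for all 10 genes.

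The straight line hides a course that differed by interval. On the TMM scale, which is relative to other transcripts, wild type had 1 member higher (Nat10) and 5 lower from 0 to 1 h, against 29.7% and 31.6% of all genes. From 1 to 3 h none was higher and 9 were lower (36.1% and 30.7%), Nop2 being the exception. From 3 to 5 h 6 were higher and 3 lower (27.8% and 35.2%), the lower ones being Nat10, Thumpd1 and Nop2. In KO-labelled libraries 2 were higher (Dkc1, Mettl1) and 6 lower from 0 to 1 h (23.2% and 26.7%), and 1 higher (Nat10) and 5 lower from 1 to 3 h (27.7% and 28.1%). From 3 to 5 h 8 were higher and 1 lower (Nop2), against 30.6% and 32.1%. With ERCC scaling none was higher and 9 were lower from 3 to 5 h in wild type, against 7.88% and 63.8% of all genes. In KO-labelled libraries 2 were higher and 6 lower, against 11.2% and 56.6%. There the mean counts per ERCC count rose from 3 to 5 h for Nsun2 (0.1918 to 0.2799) and Fbl (0.09395 to 0.1145). Those of the other members fell. The slopes of Nsun2 and Fbl in KO-labelled libraries thus join a fall and a later rise, whose cause was not tested.

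Partners in the same complexes were examined as a fixed set of 8 genes. The box C/D core proteins Nop56, Nop58 and Snu13, the box H/ACA proteins Nop10, Nhp2 and Gar1, and the subunits Trmt6 (with Trmt61a) and Wdr4 (with Mettl1) were all higher in KO-labelled libraries in the mean of the times, against 31.6% of all genes. None of the 8 passed with summed files, with edgeR adjusted p from 0.078 (Nop10 and Nhp2) to 0.48 (Nop56). Nhp2 (1.08, SE 0.03) and Nop10 (1.05, SE 0.03) differed more than Dkc1, their partner (0.79), as point values, and Nop56 the least at 0.37 (SE 0.02). Scaled on long-lived mRNAs Nop56 changed sign to -0.20. At 0 h Nop58 was lower by -0.11 (SE 0.03, edgeR adjusted p = 0.00017), Snu13 (-0.070) and Gar1 (0.11) did not pass, and the other 5 were higher. All 8 fell after the block in both genotypes with ERCC scaling, Nop58 most steeply in wild type at -0.76 log2 per hour (SE 0.01).

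The wider family holds 101 further genes of rRNA and tRNA modification, the 8 partners included, and 98 of them were tested. In the mean of the times 71 were higher in KO-labelled libraries, 5 were lower and 22 did not pass, against 31.6% higher and 21.6% lower among all genes, with a median of 0.50 against 0.11. With long-lived mRNA scaling 25 were higher and 41 lower (13.8% and 38.8% of all genes), and with the files of a group summed none passed. By class, and counting the 10 genes in, 21 of 22 tested rRNA genes, 8 of 9 of mitochondrial rRNA and 8 of 10 pseudouridine synthases were higher and none lower, beside the same 31.6% and 21.6% of all genes. Of 67 tRNA genes 44 were higher and 5 lower, with a median of 0.28.

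Apart from the partners, and among genes that passed with a mean log2 CPM of at least 3, the upper end of the wider family held Thg1l (1.45, SE 0.07), which adds a guanosine to the 5′ end of histidine tRNA, Nsun5 (1.04, SE 0.06), a methyltransferase of 28S rRNA, and Mto1 (0.95, SE 0.04), which modifies mitochondrial tRNA. At the lower end were Trmt13 (-0.64, SE 0.08), a ribose methyltransferase, Trmt10c (-0.39, SE 0.04), a subunit of mitochondrial ribonuclease P, and Nsun6 (-0.21, SE 0.07), a tRNA cytosine methyltransferase. In the ERCC-scaled slopes 97 of the 98 fell in wild type and 96 in KO-labelled libraries, against 57.4% and 71.3% of all genes, with medians of -0.47 and -0.46. With TMM scaling 53 fell and 23 rose in wild type (31.2% and 28.1% of all genes), and 31 fell and 43 rose in KO-labelled libraries (31.8% and 29.0%).

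**Figure D4:**
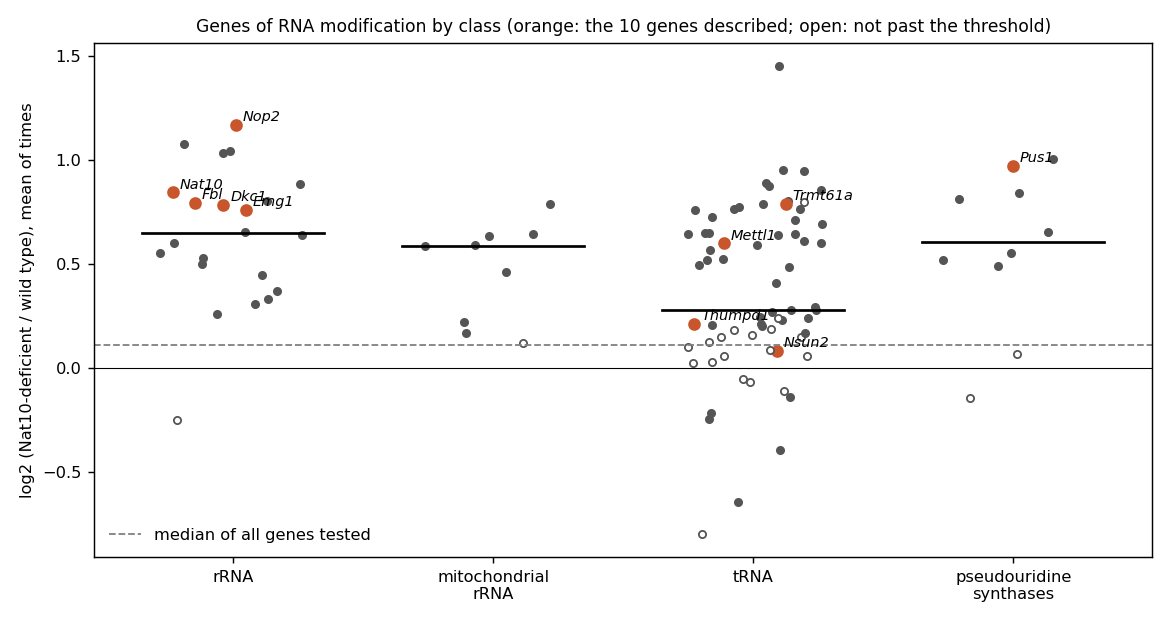
Mean difference between genotypes over the 4 times (log2 of KO-labelled over wild type, TMM scaling) for genes of rRNA, mitochondrial rRNA and tRNA modification and for pseudouridine synthases, 1 point per tested gene. Orange marks the 10 genes described, open points did not pass the threshold, solid bars are class medians and the dashed line is the median of all genes (0.11). The rRNA class has 21 of 22 genes higher, and the tRNA class spreads from -0.80 (Trmt9b, an open point with too few counts for a usable SE) to 1.45 (Thg1l).

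Among the genes whose course was most like that of Nat10 over the 8 group means, out of 8281 compared, were Zfp740 (Pearson r = 0.98), Bcap29 (0.97), Plgrkt (0.97) and Emc2 (0.96). For Thumpd1 they were Bcor (0.99), Cand1 (0.99), Fbxl14 (0.99), Zbtb1 (0.99) and Atp6v1d (0.99). Among the members Pus1 was the most like Nat10 (0.91) and Thumpd1 the least (0.48). Over all 45 pairs of members r ran from -0.083 (Thumpd1 and Dkc1) to 0.93 (Dkc1 and Emg1), with a median of 0.68. The points are group means that share library scaling and sorts, so these values describe the 8 groups only.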

How the data were processed

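Polyadenylated RNA of 16 libraries was analysed. The deposited values are raw counts of fragments for each gene, produced by featureCounts 1.6.3 in unstranded mode (per the file headers). STAR, DESeq2 and the build GRCm39 are listed in the submitters' processing notes. The members and gene lists were chosen with earlier results of these data known. Groups came from the labels. The deposited counts of 25081 genes (45.3%) kept by filterByExpr were fitted with edgeR 4.0.16 in R 4.3.3 (quasi-likelihood F test, a mean per group, Benjamini-Hochberg adjustment over all genes tested, threshold 0.05), with TMM factors for genotype and interval comparisons and ERCC factors for slopes. The files also hold an exonic length per gene from the deposited annotation, used for TPM.

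Named genes are the 10 members, 8 partners, the 3 highest and 3 lowest by mean difference of the rest of the wider list (those past the threshold with a mean log2 CPM of at least 3), and the 5 genes most like Nat10 and Thumpd1 by correlation of log2 CPM (prior count 2), of which 1 is not reported here. Alternatives were no low-count filter, DESeq2 1.42.0, scaling on 43 long-lived mRNAs, on TMM without immunoglobulin genes or on ERCC counts, a replicate block, each library left out, files of a group summed (4 residual degrees of freedom for lines over hours, 3 for the mean of times), and, added after seeing the data, no 5 h libraries and summed files at 1, 3 and 5 h. The coefficient of variation that edgeR calls biological was 0.0241 between files and 0.899 with files summed. Neither measures spread between biological replicates. The first compares files that name the same alignment, and the second holds what an additive fit of time and genotype leaves over. Fits of the mean difference and the slope difference, both TMM-scaled, were tested on simulated counts first. The simulated replicates were independent and more spread than these files, and the ERCC-scaled and summed-file fits were not simulated. The labels name no molecular identifiers, so amplified copies of 1 molecule can count several times and counting errors are too small. Promoter sequences are from RefSeq (GRCm38.p6) and coordinates of genes from the file headers.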

Additional observations from a re-analysis of the deposited data

Results flagged for a closer look

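For 7 of the 10 genes the slope after the block differed between genotypes by a test of the difference itself. The difference, KO-labelled minus wild type in log2 per hour with ERCC scaling, was 0.29 for Nat10, 0.26 for Fbl, 0.15 for Nsun2, 0.088 for Mettl1, 0.082 for Pus1 and 0.059 for Emg1, and -0.18 for Trmt61a. None of the 7 passed with the files of a group summed, and the call of Pus1 was lost without any of 6 single libraries and that of Mettl1 without 1. Without the 5 h libraries Nsun2 (-0.099) and Emg1 (-0.16) were called in the other direction, and Pus1 (-0.046) and Trmt61a (-0.12) did not pass.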

How the results depend on the processing

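The replicate numbers do not pair the files (correlations of deviations between equal numbers were -0.0133 to 0.0187), and with the number as a replicate block the slope difference had 2 members lower in place of 1 and no other count of members changed by over 1.5 times. Where a value below moved, the cause was not tested.

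With scaling on long-lived mRNAs, members lower were 4 at 0 h, 4 at 1 h, 3 at 3 h, 1 at 5 h and 2 in the mean, and members higher were 3 at 1 h and 5 at 3 h. Signs turned at 0 h for Nat10 (-0.014), Thumpd1 (-0.25), Fbl (-0.18) and Mettl1 (-0.33), at 1 h for Fbl (-0.45), Emg1 (-0.016) and Mettl1 (-0.12), and at 3 h for Thumpd1 (-0.67), Emg1 (-0.16) and Nsun2 (-0.82). They also turned for Trmt61a at 5 h (-0.25), for Thumpd1 (-0.36), Nsun2 (-0.49) and Nop56 (-0.20) in the mean, for Dkc1 (0.0050) and Nsun2 (0.038) in the KO-labelled slope, where 1 member was higher, and for Nop2 (0.017) in the slope difference. Interval counts became 2 higher and 2 lower (wild type 0 to 1 h), 0 and 8 (3 to 5 h), 8 lower (KO-labelled 1 to 3 h) and 4 and 3 (3 to 5 h). The wider list had 25 higher and 41 lower in the mean, and 3 and 1 higher in the wild type and KO-labelled slopes.

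With ERCC scaling genotype differences moved by the spike-in share (median of all genes 5.54 in the mean). No member was then lower at 0 or 1 h (0), and values turned to 5.83 (0 h) and 5.45 (1 h) for Nsun2, 5.62 for Nat10 and 5.70 for Thumpd1 at 1 h, and in the mean to 5.10 for Trmt13, 5.35 for Trmt10c and 5.53 for Nsun6, with 0 of the wider list lower. Intervals had 0 higher and 10 lower (0 to 1 h, both genotypes), 0 and 9 (KO-labelled 1 to 3 h, wild type 3 to 5 h) and 2 and 6 (KO-labelled 3 to 5 h).

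With TMM scaling of slopes, and with TMM without immunoglobulin genes in parentheses, the wild type slope was 0.061 (0.071) for Dkc1 and 0.054 (0.064) for Trmt61a, with 2 (2) members higher and 6 (6) lower. The KO-labelled slope was 0.16 (0.15) for Nat10, 0.017 (0.013) for Fbl, 0.17 (0.17) for Dkc1, 0.14 (0.13) for Emg1, 0.20 (0.20) for Nsun2, 0.13 (0.13) for Mettl1 and 0.037 (0.033) for Pus1, with 6 (5) higher and 3 (3) lower. The slope difference of Nop2 was 0.063 (0.050). The wider list had 23 (23) higher and 53 (50) lower in wild type, and 43 (41) higher and 31 (31) lower in KO-labelled libraries. TMM without immunoglobulin genes left 1 member lower at 1 h.

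DESeq2 turned Thumpd1 (-0.0024) and Mettl1 (-0.087) at 0 h, Fbl at 1 h (-0.0014), Thumpd1 (-0.080) and Nsun2 (-0.23) at 3 h and Nsun2 in the mean (-0.049). It called 1 member lower at 3 h and 1 in the mean, 1 higher (wild type) and 2 higher (KO-labelled) from 1 to 3 h, 0 lower (KO-labelled 3 to 5 h), and 8 of the wider list lower. Without the low-count filter Thumpd1 at 1 h was 0.0069, 1 member was lower at 1 h, and the wider list had 2 lower in the mean and 1 higher in the wild type slope.

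With the files of a group summed 0 members were higher or lower at 0, 1 or 5 h, in the mean or in the slope difference, and 4 were higher at 3 h. For these 4 the gap between the lines had its smallest SE at 3 h, so the count does not single out that time. Read from the straight lines over hours, Nat10 turned at 0 h (-0.012) and 1 h (0.37), as did Thumpd1 (-0.024 and 0.089). With files summed the wider list had 0 higher and 0 lower in the mean and 61 lower in the wild type slope. Without the 5 h libraries Nsun2 turned in the mean (-0.19), where 1 member and 8 of the wider list were lower, and 1 of the wider list rose in wild type. The slope difference had 3 members higher and 4 lower, and turned for Thumpd1 (-0.18), Dkc1 (-0.0096), Emg1 (-0.16), Nsun2 (-0.099) and Pus1 (-0.046). By CPM without length Nat10 was in place 6 and Thumpd1 in place 7 in both genotypes at 0 h.

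With each library left out in turn, members lower ran from 1 to 2 at 1 h (6 libraries gave 1) and from 1 to 2 in the slope difference (2 without WT_0h replicate 2). Members higher from 0 to 1 h in wild type ran from 0 to 1, members lower from 3 to 5 h in KO-labelled libraries from 0 to 1, and the wider list's lower count in the mean from 2 to 5 (fewer without either file of WT_3h or WT_5h). Nsun2 at 3 h ran from -0.057 to 0.053, the Mettl1 slope difference from 0.069 to 0.10 (lost without WT_5h replicate 1), that of Pus1 from 0.042 to 0.12 (lost without 6 libraries) and that of Nop2 from -0.037 to -0.023 (passing without WT_0h replicate 2).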
